A study of Mus musculus with 45 samples.

Results

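Single-exon annotated transcripts are RNAs that match a reference model without introns. They were taken from the deposited table of transcript levels by rule: the structural category had to be full-splice match and the exon number 1 in the authors' classification of transcripts before filtering. The rule found 5412 of the 276608 transcripts in the table (1.957%), in 3376 genes and assigned to 3473 reference transcripts. The category says less here than for spliced RNAs. All 26058 single-exon transcripts assembled in the study were placed in it by the deposited classification. Of the 5412, 5364 could be matched to a GENCODE M21 model, 5362 of these models had a single exon, and all 5364 overlapped their model.

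The libraries are long-read cDNA on Oxford Nanopore flow cells, from mouse neural progenitor cells and from cells reprogrammed from them towards pluripotency, all of line O4G (Oct4-GFP). The progenitors were wild type or carried doxycycline-inducible reprogramming factors, either OKMS or OKS, whose genotype labels (OKMS-Luciferase-AS, OKS-Luciferase-AS) also name a luciferase element with no stated role. Progenitor libraries were made in progenitor medium (day 0), libraries of induced cells in serum medium with LIF and doxycycline at 1 µg/mL (FBS-LIF) or after a move to 2i-LIF, and libraries of embryonic stem cells of lines O4G, R1 and R1-Clone3 in 2i-LIF. In R10, 5 of the 7 stem cell libraries thus differ from the progenitors in line as well as in state. The 22 R9 libraries were direct cDNA of poly(A)-enriched RNA on R9.4.1 flow cells, and the 23 R10 libraries were PCR cDNA of total RNA, without poly(A) enrichment, on R10.4.1 flow cells. R9 had 4 progenitor libraries (2 wild type, 1 OKMS, 1 OKS), 2 stem cell libraries (O4G, R1), 1 wild-type library after 2 days in FBS-LIF, OKMS and OKS at days 2, 4, 6, 10, 14 and 20 in FBS-LIF with 1 library each, and 3 libraries in 2i-LIF at days 14 and 20. R10 had 4 progenitor libraries with the same genotypes and 7 stem cell libraries (2 O4G, 3 R1, 2 R1-Clone3). It also had 2 wild-type libraries after 2 days in FBS-LIF and 6 libraries of induced cells in FBS-LIF up to day 10. At day 18 it had 4, OKMS and OKS each with 1 library in FBS-LIF and 1 in 2i-LIF. The induced cells were not separated into reprogrammed and other cells by any label, and the labels do not say that replicates came from separate cultures, so p-values measure only the spread between these libraries.

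Genes without introns are a mixed company. Replication-dependent histone genes, several transcription factors of the SOX, POU and immediate-early families and the clustered protocadherins are coded by a single exon or have a long terminal exon. Processed pseudogenes arose when spliced mRNAs were copied back into the genome, so they lack introns and can resemble their parent so closely that reads are hard to place. Mitochondrial RNAs have no introns at all. Other single-exon reference models describe RNAs that keep an intron, long noncoding RNAs such as Malat1 and Neat1 that stay in the nucleus, and regions marked TEC, models that await experimental evidence. Both kinds of cDNA are primed with oligo(dT), which anneals to a poly(A) tail and can also anneal to a run of A inside an RNA. The share of A in the genome just after a transcript's end is therefore given by annotation tools as a warning sign.

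Most marker genes separated the labelled states. All 7 stem cell markers (Pou5f1, Nanog, Zfp42, Esrrb, Dppa5a, Tdgf1, Tdh) were higher in every stem cell library than in every progenitor library, and the progenitor markers Nes, Pax6, Fabp7, Olig2 and Ptn were the reverse. Hes5 was at most 5.35 CPM in progenitors, and Sox1 went against its label, at 0 CPM in all progenitors and 0.373 to 10.4 CPM in stem cells. Of 11 markers of other cell types, 9 were in the gene table. Among stem cell and progenitor libraries, Tubb3 (neurons) and Pecam1 (endothelium) were the highest of these, at up to 133 and 75.4 CPM in stem cells. In FBS-LIF, Acta2 (smooth muscle) reached 2299 CPM in OKS cells at day 14 and Gfap (astrocytes) 3015 CPM in wild-type cells. Transcript reads ranged from 199943 to 2129779 per library. One feature of the labels bears on every R10 result below: 10 R10 libraries, the 4 of day 18 and 6 of the 7 stem cell libraries, carry a library number in their labels and the other 13 do not. All 4 progenitor libraries of R10 are unnumbered, and only 1 stem cell library, of line R1, is unnumbered too. The sets are called numbered and unnumbered below, and the reason for the difference is not given in the labels. State and library set cannot be told apart in R10 except through that unnumbered R1 library.

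The ends of the transcripts carry much of what follows, so the 20 genomic bases after the end of 10 of them are shown, 5′ to 3′ on the transcript's strand, in mm10 coordinates, with the longest run of A in capitals (or the whole window in lower case where it holds no A). The windows with at least 60% A are shown first.
Gm2000, chr1:156366485-156366504, plus strand: AAAAAAAAAAAAAAAAAAAA
Trim35, chr14:66298123-66298142, plus strand: agAAAAAAAAAAAAAAAAAA
Scp2-ps2, chr9:123306580-123306599, minus strand: AAAAAAAAAAAAgaaaaaaa
Gm10401, chr5:115097669-115097688, minus strand: aaaagaaaaaagAAAAAAAA
Psme2b, chr11:48945334-48945353, minus strand: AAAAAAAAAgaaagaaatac
Irf3, chr7:44998322-44998341, plus strand: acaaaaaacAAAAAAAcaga
Gm12191, chr11:49678553-49678572, minus strand: AAAAAAgaacaagacccttg
Cnot3, chr7:3645527-3645546, plus strand: ctctcccccctcctcgcctg
Jund, chr8:70700617-70700636, plus strand: gcttggctgtccgcctcctt
Mt1, chr8:94180328-94180347, plus strand: ctctggttttcttggtgtgg

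Replication-dependent histone mRNAs are known for ending in a conserved stem-loop in place of a poly(A) tail, so the stem-loop marks where a mature histone mRNA stops. It was searched in the GENCODE M21 transcripts as 6 bases that begin with GG, a loop of 4 bases that begins with T, and the reverse complement of the 6 bases, on the transcript's strand. It was present in 33 of the 50 reference transcripts of these histones and in 33 of 3388 reference transcripts of the other single-exon transcripts (0.97%). A reference that stops short of the stem-loop gives no hit, so the remaining histones are not shown to lack it. The versions below belong to a linker histone, an H3 and an H2A gene, and the paired bases are in capitals. The first is the commonest, shared by 38 of the 62 histone transcripts with a stem-loop, and was in 2 of the 3388 other references.
H1f4, chr13:23621782-23621797, minus strand: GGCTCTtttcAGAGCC
H3c3, chr13:23745047-23745062, minus strand: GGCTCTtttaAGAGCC
H2ac20, chr3:96220418-96220433, minus strand: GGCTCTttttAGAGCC

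By the class of their GENCODE model, pseudogenes were the commonest single-exon transcripts, with 1513 of 5412 (27.956%). Nuclear protein-coding models followed with 1169 transcripts in 505 genes, retained-intron models of protein-coding or other genes with 1116, TEC regions with 690, lncRNAs with 686, mitochondrial genes with 82 and small RNAs with 62. A further 46 belonged to other models of coding genes and 48 were not matched. Class names below are those of the assigned model, so a retained intron here is a transcript assigned to such a model. Whether these transcripts cover an intron was not checked. Of all single-exon transcripts, 3741 lay in genes that have only single-exon models and 1663 in genes that also have spliced ones. Several transcripts of 1 gene were frequent: 1109 genes had more than 1. Malat1 had the most, with 22 by symbol and 19 by gene identifier. The neural transcription factor Sox11 had 17, between 230 and 8311 bases long, and mt-Nd5, Purb and Neat1 had 16 each. Such transcripts share sequence and are not independent of each other.

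Predicted coding status differed between classes. The authors' classification predicted an open reading frame in 2533 single-exon transcripts (46.8%), against 89.3% of the 51381 multi-exon full-splice matches in the table. The share was 74.0% for transcripts of coding models and 67.7% for pseudogenes, whose parents are mostly coding genes, while it was 27.9% for retained introns, 24.8% for lncRNAs, 15.9% for TEC regions and 3.66% for mitochondrial transcripts. The median length was 1299.5 bases against 1936 for multi-exon matches, and 759 for pseudogenes.

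Starts were less well anchored than in spliced transcripts, and ends nearly as well. A CAGE peak, the mark of a capped start, was recorded at 51.2% of the single-exon starts and at 95.2% of multi-exon starts. By class, CAGE support ran from 81.9% for coding models and 72.0% for lncRNAs to 34.6% for TEC regions, 18.2% for pseudogenes and 0 of 82 for mitochondrial transcripts, which carry no cap. The start lay within 50 bases of the annotated start in 43.6% (62.3% of multi-exon matches) and the end within 50 bases of the annotated end in 31.9% (33.0%), and both ends did so in 1217 transcripts. Small RNA models were the furthest from their reference, with a median length of 1047.5 bases against 186 for the models they were assigned to. Every transcript in the table, of any kind, had a poly(A) motif near its end, which 46.1% of all assembled single-exon transcripts had. The canonical motif AATAAA made up 40.743% of the motifs here and 43.964% in multi-exon matches, and the A-rich motif AAAAAG 7.668% and 5.391%.

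Reads were concentrated in few of these transcripts. Over all 45 libraries the median was 23 reads per transcript, 1288 had fewer than 10 and 1080 had at least 100. Pseudogenes took 57.5% of the 2042794 reads, coding models 22.5%, mitochondrial transcripts 9.25%, retained introns 4.48%, lncRNAs 4.12%, TEC regions 1.15% and small RNAs 0.839%. Single-exon transcripts held 5.45 to 14.7% of all TPM in a library. TPM divides by length, so that 1 read on a transcript of some 100 bases counts for many TPM. Retained-intron transcripts held a median of 1.89% of the reads on all transcripts of their gene in the transcript table, and mitochondrial ones 1.69%. The median for pseudogenes and TEC regions was 100%, which means only that no other transcript of the gene held reads there. Reads of a gene outside the transcript table are not counted in these shares.

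**Figure D1:**
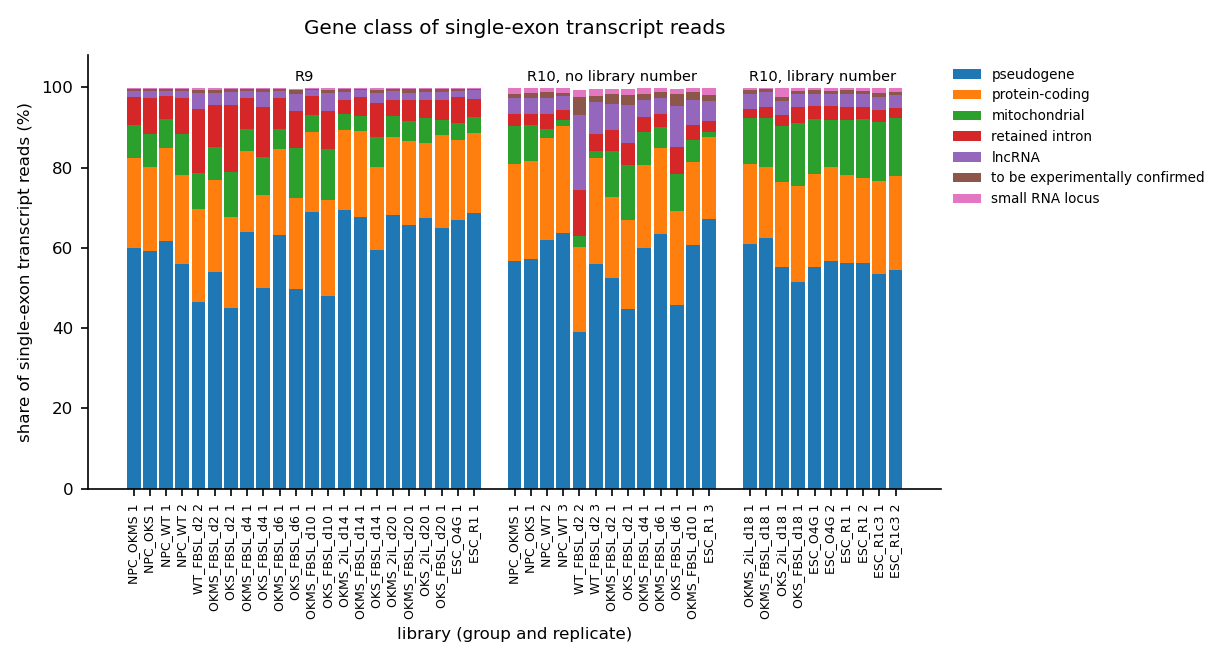
Share of the reads on single-exon transcripts (y axis, percent) in each gene class, stacked for each of the 45 libraries (x axis) in 3 blocks: R9, unnumbered R10 and numbered R10 libraries. Pseudogenes take 39.0 to 69.5% of each bar, and the mitochondrial part is 11.4 to 15.7% in the numbered R10 libraries and 1.24% in the unnumbered R1 stem cell library.

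The most abundant single-exon transcript was Rps26-ps1, an intronless copy of a ribosomal protein gene (chr8:107439123-107439593, minus strand, 471 bases). Its level ranged from 2986 to 13813 TPM in the R9 libraries with a median of 7755, and from 3151 to 11165 TPM in R10 with a median of 7688. Next came Gm2000, a coding model of 445 bases (chr1:156366040-156366484), and Rps23-ps1, another ribosomal protein copy, with means of 5948 and 5621 TPM. Ftl2-ps, a copy of the ferritin light chain gene that codes an iron-storage subunit, had a mean of 3383 TPM. How reads were divided between such copies and their spliced parents is not given, so their levels are uncertain. Among coding genes that are no copies, Sf3b5, a small subunit of the splicing factor SF3B, held 399 to 1067 TPM in R9 and 418 to 1039 TPM in R10. The ranges of R9 and R10 overlapped for each of these 5 transcripts.

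The genome after the end was richer in A for single-exon than for multi-exon annotated transcripts. The median share of A in the 20 bases was 30% against 20%, and at least 60% A was found for 404 single-exon transcripts (7.465%) and 68 multi-exon ones (0.1323%). Those 404 made up 84.696% of all 477 transcripts of the table with such an end. By class the share with at least 60% A was 19.6% for retained introns (219 transcripts) and 17.8% for TEC regions (123), followed by 3.79% for lncRNAs (26), 1.71% for coding models (20) and 0.793% for pseudogenes (12), with none among the mitochondrial and small RNA transcripts. Just under the threshold lay more windows than above it: 603 single-exon transcripts (11.142%) had 50 to 59% A and 64 (1.183%) had 60 to 69%. Multi-exon matches dropped more sharply there, from 1659 (3.229%) to 15 (0.029%), so the contrast depends on the threshold. With at least 50% A the shares were 18.6% of single-exon and 3.36% of multi-exon matches. Of the 9798 such transcripts in the table, 1007 were single-exon annotated ones.

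Most transcripts with an A-rich end were seen by few reads. Gm2000, whose whole window is A, was the exception: R9 libraries held 2530 to 9606 TPM (median 6396) and R10 libraries 2724 to 7638 TPM (median 6108). These ranges overlapped. The next was a transcript assigned to a retained-intron model of Pet100, a gene for a factor of cytochrome c oxidase assembly. It was at a mean of 41.6 TPM with 416 reads in R10 and 103 in R9. The transcript of this class from Trim35, which codes a tripartite-motif protein, had 385 reads in 22 of 23 R10 libraries and 9 reads in 8 of 22 R9 libraries. Those of the same class from Alkbh1, a nucleic acid demethylase gene, and Irf3, the gene of an interferon regulatory factor, had 226 and 142 reads in R10 beside 29 and 18 in R9. R10 libraries hold more reads, so the mean TPM is given for the next ones. Gm10401, a coding model, was at 7.45 TPM in R10 and 30.0 in R9, the pseudogene Scp2-ps2 at 3.36 and 8.86 TPM, and Psme2b, a copy of a proteasome activator gene, at 11.0 and 11.6 TPM. By the same measure Trim35 was at 15.0 and 1.05 TPM, Pet100 at 47.9 and 35.0, Irf3 at 8.23 and 3.61 and Alkbh1 at 6.13 and 2.495 TPM. Just under the threshold, with 55% A, the pseudogene Gm12191 was at 991 to 3454 TPM in R9 and 1690 to 4607 TPM in R10.

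A-rich ends were seen in a larger share of the detected single-exon transcripts in every R10 library than in any R9 library. The share was 1.77 to 3.74% in R9 and 4.81 to 9.27% in R10. R10 libraries were mostly deeper, so the share was also computed for a common depth of 190000 reads per library, where it was 1.60 to 3.54% in R9 and 4.41 to 9.14% in R10. Measured by reads, the chemistries overlapped: transcripts with an A-rich end other than Gm2000 took 0.221 to 0.716% of the reads on single-exon transcripts in R9, 0.656 to 4.37% in the unnumbered R10 libraries and 0.515 to 0.785% in the numbered ones. Among detected multi-exon matches the share with such an end also overlapped, at 0.0635 to 0.139% in R9 and 0.0519 to 0.148% in R10. The highest share of detected transcripts was in a wild-type library of day 2 in FBS-LIF (R10, replicate 2), in which retained introns also took 11.3% of the reads on single-exon transcripts and lncRNAs 18.7%. Of the 404 transcripts with an A-rich end, 266 were detected in both chemistries, 138 in R10 alone (34.158%) and none in R9 alone. Of the single-exon transcripts with less A, 13.359% were detected in R10 alone and 38 in R9 alone. These pooled counts were not matched for depth or for reads per transcript, although R10 libraries hold more reads. What part of the difference goes with depth was not tested.

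**Figure D2:**
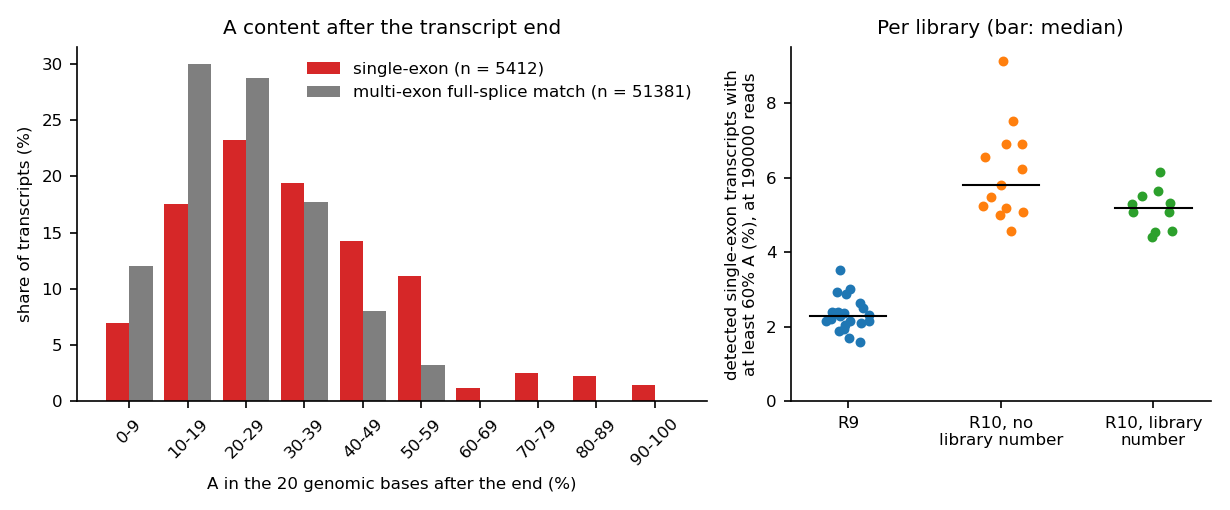
Left, distribution of the percent of A in the 20 bases after the end (x axis) as a percent of transcripts (y axis), for single-exon and multi-exon full-splice matches. Right, share of detected single-exon transcripts with at least 60% A, at a common depth of 190000 reads, for each library (points) in 3 sets: the 22 R9 libraries lie at 1.60 to 3.54% and the 23 R10 libraries at 4.41 to 9.14%, with no overlap.

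Chemistries were compared within the 12 conditions sampled in both (13 R9 and 17 R10 libraries), with limma on log2(TPM + 1), the condition as a block, and calls at an adjusted p under 0.05 with a log2 difference of at least 1. Differences on this scale understate those of low transcripts. The levels printed below beside these differences are ranges over all 22 R9 and 23 R10 libraries, not only those fitted. In R10, the day 18 and R1-Clone3 libraries have no R9 partner and were not in the fit. Flow cell, cDNA protocol and RNA selection differ together between R9 and R10 and cannot be told apart. Of 39482 transcripts tested, 22.0% were called (10.9% higher in R10 and 11.1% lower), and of the multi-exon annotated matches 15.5%. Of the 1464 single-exon transcripts that passed the filter, 602 were called (41.1%): 395 were higher in R10 (27.0%) and 207 lower (14.1%). On whole reads with edgeR's quasi-likelihood test, 437 were higher and 209 lower, of a background of 27.9% (16.9% higher and 11.0% lower).

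The direction went with gene class. Of 147 retained introns tested, 88 were higher in R10 and 4 lower, with a median log2 difference of 1.27, beside a median of 0.12 over all transcripts tested. TEC regions had 31 higher and 2 lower of 51 (median 1.22), lncRNAs 47 and 3 of 136 (0.71) and small RNAs 8 and 0 of 13 (1.52). With no filter on low values, 131 retained introns were higher and 4 lower of 1116 (median 0.31), and 59 TEC regions higher and 3 lower of 690 (0.25). Replication-dependent histones had 21 higher and 0 lower of 37 (1.22), but 8 higher and 1 lower of 26 (0.55) when progenitor and stem cell conditions were left out. For that fit and the fit with no filter, the share called over all transcripts is not given. A list of mostly nuclear noncoding RNAs had 15 higher and 1 lower of 23 (1.76). It holds Malat1, Neat1, Kcnq1ot1, Tug1, Rmrp, Rn7sk and Rpph1, but also Gm42418, Gm26917 and the coding gene Lars2. The count was not split by gene. Mitochondrial transcripts went the other way, with 8 higher and 33 lower of 65 (median -1.20). Their summed level did not follow this count: it was 2992 to 7000 TPM in R9, 1469 to 22773 TPM in the unnumbered R10 libraries and 19498 to 46225 TPM in the numbered ones. The immediate-early and CEBP transcription factors had 2 higher and 8 lower of 21 (-0.54). Coding models (73 higher and 52 lower of 404) and pseudogenes (133 and 113 of 636) were called in both directions.

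Without the numbered R10 libraries, the groups listed next kept their direction, but the share called over all transcripts is not given for that fit. There, 49 retained introns were higher and 4 lower of 96 tested, 25 TEC regions higher and 1 lower of 37, 13 histones higher and 0 lower of 25, and 6 mitochondrial transcripts higher and 34 lower of 58. Transcripts of genes that also have spliced models leaned further to R10 (130 higher and 16 lower of 295) than those of genes with single-exon models alone (265 and 191 of 1169); the difference was not tested. Among the 28 tested transcripts with at least 60% A after the end, 15 were higher and 2 lower (median 1.07). Among those with less than 40% A, 252 were higher and 145 lower of 1027. The A-rich ends and the classes overlap, since 14 of those 15 were retained introns, TEC regions or lncRNAs.

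**Figure D3:**
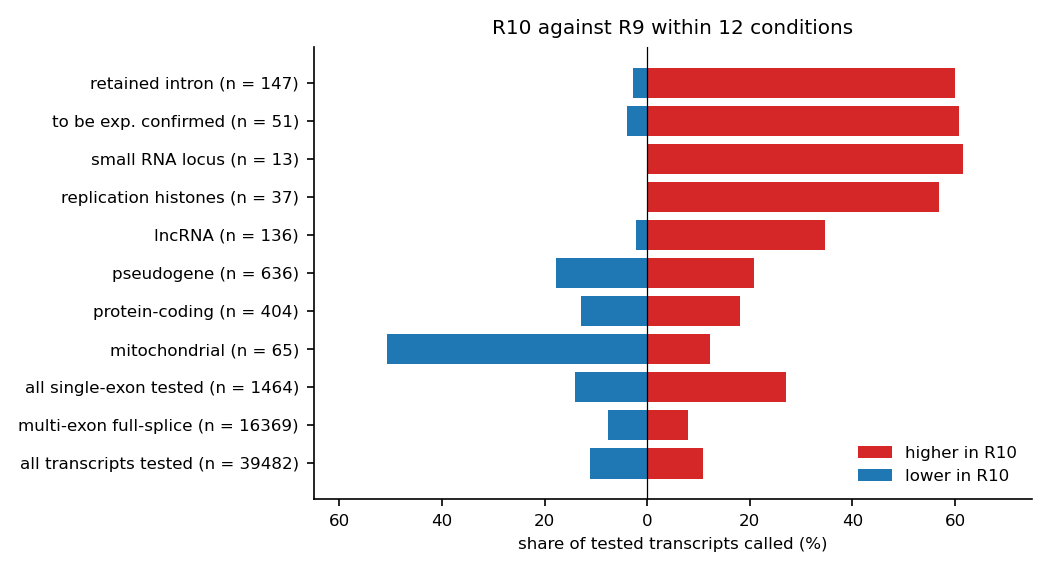
Percent of tested transcripts called higher in R10 (bars to the right) or lower (bars to the left) by class, beside all single-exon transcripts (1464), multi-exon full-splice matches (16369) and all transcripts (39482). Retained introns, TEC regions, lncRNAs and small RNAs lie almost wholly on the right, mitochondrial transcripts mostly on the left.

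Some transcripts differed by more than the median of their class. The histone H1f4, a linker histone that binds DNA between nucleosomes, was at 0 to 4.92 TPM in R9 with a median of 0, and at 29.3 to 1241 TPM in R10 with a median of 151 (chr13:23621720-23622555, 836 bases). The groups did not overlap, and the log2 difference was 6.48 ± 0.37 (SE; limma, adjusted p = 4.38e-12). It ends 62 bases past its stem-loop. Another linker histone, H1f5, was at 0 to 10.3 TPM in R9 with a median of 0, at 0 to 213 TPM in the unnumbered R10 libraries (median 105) and at 640 to 1925 TPM in the numbered ones (median 1649). Here the numbered libraries stood apart from all others, and the log2 difference was 6.10 ± 0.62 (limma, adjusted p = 6.18e-08).

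Ribosomal RNA fragments followed. A 435-base transcript of mt-Rnr1, the small mitochondrial ribosomal RNA, was at 0 to 58.4 TPM in R9 (median 29.3) and at 557 to 2193 TPM in R10 (median 1381), with no overlap and a log2 difference of 5.53 ± 0.27 (limma, adjusted p = 3.34e-13). An 80-base piece of the large one, mt-Rnr2, differed by 7.69 ± 0.74 (limma, adjusted p = 2.64e-08), though it had 670 reads in all and its R10 range of 0 to 1185 TPM overlapped the R9 range of 0 to 26.8 TPM. On chromosome 17 a locus known for nuclear ribosomal RNA sequence held Gm42418 on the plus strand and CT010467.1 on the minus strand. The 902-base transcript of Gm42418 was at 0 to 21.1 TPM in R9 (median 4.18) and at 206 to 623 TPM in R10 (median 445), without overlap (log2 difference 6.36 ± 0.36; limma, adjusted p = 4.3e-12).

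CT010467.1, assigned to a small RNA model and 1507 bases long, split the R10 libraries by label. It was at 0 to 6.82 TPM in R9 (median 1.96), 8.00 to 25.8 TPM in the numbered R10 libraries (median 15.5) and 138 to 288 TPM in the unnumbered ones (median 182). These 3 ranges did not overlap, and the unnumbered R1 stem cell library, at 288 TPM, was the highest of all. The log2 difference between chemistries was 5.86 ± 0.51 (limma, adjusted p = 5.53e-09). Strand use in counting is not given, so its reads and those of Gm42418 cannot be told apart.

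Of the nuclear noncoding RNAs, a Malat1 and a Neat1 transcript were higher in R10 as well. The longest Malat1 transcript tested here, of 6983 bases, was at 0 to 27.4 TPM in R9 (median 1.69) and 0.863 to 208 TPM in R10 (median 7.53). A 3120-base transcript of Neat1, the RNA scaffold of paraspeckles, was at 0 to 3.29 TPM in R9 and 0 to 146 TPM in R10. The ranges overlapped for both, and the log2 differences were 2.15 ± 0.32 and 3.31 ± 0.49 (limma, adjusted p = 1.93e-05 and 1.35e-05). Cnot3 is a gene of the CCR4-NOT deadenylase complex. Its 222-base transcript, assigned to a retained-intron model, holds no A in the window after its end. It was at 0 to 165 TPM in R9 (median 81.5) and 122 to 338 TPM in R10 (median 220). The log2 difference was 1.60 ± 0.18 (limma, adjusted p = 3.09e-07).

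Ctnnb1 was among the most abundant transcripts that were lower in R10. This 451-base single-exon piece of the gene for beta-catenin (chr9:120960078-120960528, assigned to a retained-intron model) was at 3963 to 16814 TPM in R9 with a median of 7862. In R10 it was at 1043 to 3086 TPM in the numbered libraries (median 1403) and 46.0 to 621 TPM in the unnumbered ones (median 190). No R10 library reached the lowest R9 library, and the difference was -4.96 ± 0.42 on the log2 scale (limma, adjusted p = 4.43e-09). In R9 this 1 transcript made up most of the class's reads. Retained introns took 3.53 to 16.6% of the reads on single-exon transcripts in R9 and 2.38 to 11.3% in R10. Without Ctnnb1 the share was 0.720 to 2.16% in R9, 2.32 to 11.2% in the unnumbered R10 libraries and 1.39 to 2.31% in the numbered ones.

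Pcbp1, an intronless gene for a poly(C)-binding protein, was at 76.3 to 372 TPM in R9 (median 168). Its 1644-base transcript was at 4.61 to 41.6 TPM in the numbered R10 libraries and 0 to 2.85 TPM in the unnumbered ones, again without overlap (log2 difference -5.97 ± 0.27; limma, adjusted p = 1.28e-13). Rpl19-ps7, a ribosomal protein pseudogene, was at 447 to 2229 TPM in R9 and 7.83 to 98.9 TPM in R10 (-5.35 ± 0.30; limma, adjusted p = 4.38e-12). The largest fall was in a 143-base transcript of the pseudogene Gm4149, at 0 to 1364 TPM in R9 (median 510) and 0 to 68.0 TPM in R10 (median 5.03), from 732 reads in all (-7.32 ± 0.52; limma, adjusted p = 1.82e-10). Jund, an AP-1 transcription factor gene, was at 7.65 to 118 TPM in R9 and 1.39 to 23.5 TPM in R10, and fell by 2.84 on the log2 scale (SE 0.27; limma, adjusted p = 1.93e-08).

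Among mitochondrial messenger RNAs, mt-Nd1, a subunit of respiratory complex I (994 bases), was at 753 to 3528 TPM in R9 (median 1559), 103 to 795 TPM in the unnumbered R10 libraries (median 365) and 888 to 2491 TPM in the numbered ones (median 1850). The unnumbered libraries lay low and the numbered ones within the R9 range. The log2 difference was -1.78 ± 0.38 (limma, adjusted p = 0.000911), from a fit that held libraries of both R10 sets but none of day 18 or R1-Clone3.

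**Figure D4:**
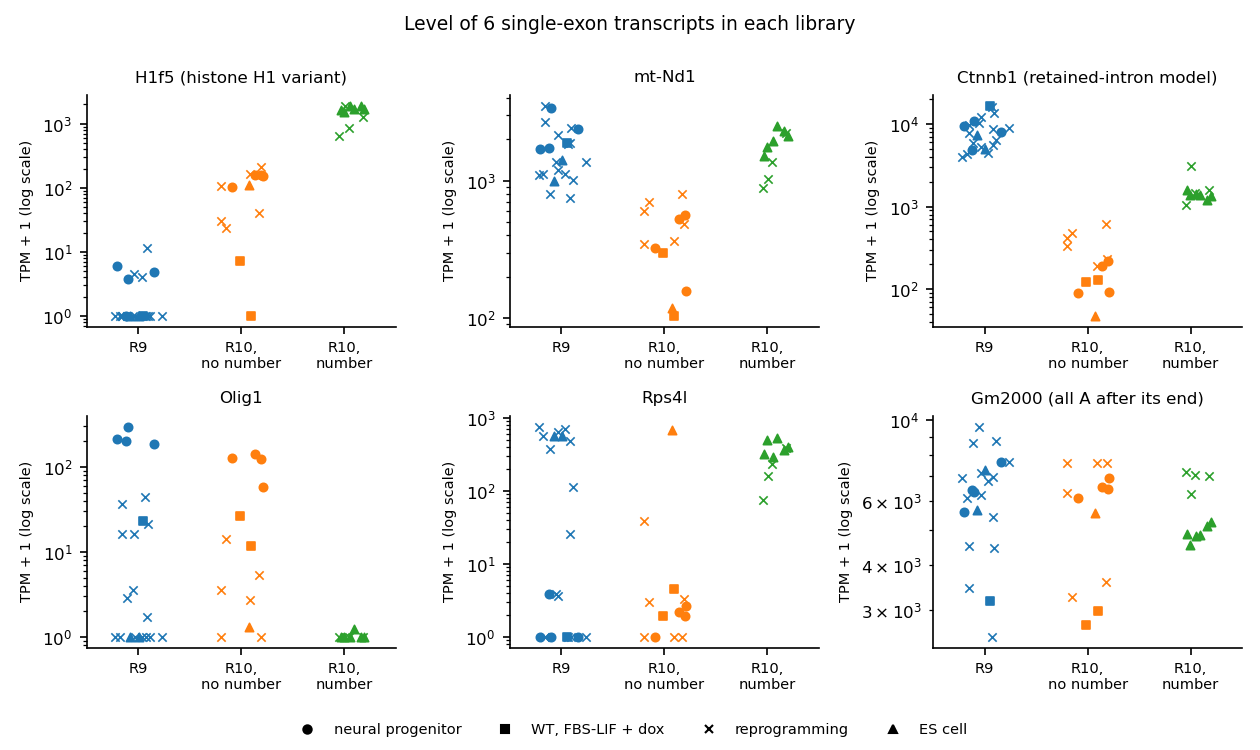
Level of 6 single-exon transcripts in each library (TPM + 1, log axis) by library set, with markers for cell state. H1f5 and mt-Nd1 are higher in the numbered than in the unnumbered R10 libraries, Ctnnb1 is highest in R9, Olig1 and Rps4l separate progenitors from stem cells in every set that holds both, and Gm2000 is at a like level in all.

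Stem cells were compared with progenitors in each chemistry to ask which single-exon transcripts depend on cell state. In R10 (7 stem cell and 4 progenitor libraries), limma called 39.8% of 58952 transcripts tested (23.4% higher and 16.4% lower). Of the 1907 single-exon transcripts tested, 635 were called (33.3%), 319 higher in stem cells and 316 lower. The count was 242 of 3022 (8.01%), of a background of 11.3% (8.7% higher and 2.55% lower), when the unnumbered R1 library was the only stem cell library set against the progenitors. In R9 (2 stem cell and 4 progenitor libraries), 13.4% of 80885 transcripts were called (9.75% higher and 3.66% lower), and 216 of 1804 single-exon ones (12.0%), 129 higher and 87 lower. edgeR called 67 in R9, of a background of 2.45% (1.22% higher and 1.23% lower), and 679 in R10, of a background of 43.4%.

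Neural transcription factors were mostly lower in stem cells. Of the 33 tested transcripts of SOX, POU, OLIG and related genes that specify neural fate, 29 were lower in stem cells in R10 and none higher, with a median log2 difference of -3.06 beside 0.17 over all transcripts tested. The filter on low values can be passed through the progenitor libraries alone. Without it, 0 were higher and 35 lower of 76 (median -0.85), and the share called over all transcripts is not given for that fit. In R9, 2 of 45 were higher and 13 lower (median -1.70), and 0 and 7 by edgeR. With the unnumbered R1 library as the only stem cell library, 0 were higher and 17 lower of 54 (median -1.49). The unnumbered R1 library lay below all 4 progenitor libraries for 30 of the 33, as did the 6 numbered libraries. Only the 3 Sox21 transcripts and 1 of Sox12 were not called in R10. In bulk RNA, fewer cells of a type and less RNA per cell cannot be told apart.

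Olig1, a helix-loop-helix factor of the oligodendrocyte lineage, was at 127, 57.1, 124 and 143 TPM in the R10 progenitors (2 wild type, OKMS, OKS) and at 203, 298, 184 and 211 TPM in the R9 ones. In stem cells it was at 0 to 0.294 TPM in the 7 R10 libraries and at 0 in both R9 libraries, so the states did not overlap. The log2 difference was -6.65 ± 0.27 in R10 and -7.79 ± 0.24 in R9 (limma, adjusted p = 5.49e-10 and 0.00076). Where a state is at or near 0, this difference depends on the 1 TPM added and gives no bound.

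The Pou3f4, Sox4 and Sox11 transcripts with the largest falls, 1 per gene, were pieces of longer genes, between 869 and 954 bases long and with no predicted reading frame. Pou3f4, a POU-domain factor, was at 49.97, 61.4, 116 and 70.7 TPM in R10 progenitors and at 0 in all 7 stem cell libraries. In R9 it was at 15.2, 6.73, 3.08 and 16.5 TPM in progenitors and 0 in stem cells. Sox4, a SOXC factor of differentiating neural cells, was at 78.3, 46.2, 72.5 and 80.4 TPM in R10 progenitors against 0.77 TPM at most in stem cells, and at 6.65, 7.39, 6.76 and 9.06 TPM in R9 progenitors. Its progenitor level was thus higher in R10, and the fall differed between chemistries, by -2.91 ± 0.47 on the log2 scale (limma interaction, adjusted p = 0.00241). For Pou3f4 the falls also differed, by -2.89 ± 0.62 (limma interaction, adjusted p = 0.0147). Stem cells were at or near 0 for both transcripts, so these values follow the progenitor levels and show no separate change in stem cells. The interaction test called 3.94% of 79301 transcripts and 79 of the 2297 single-exon ones tested. Of 44 neural transcription factor transcripts in it, 4 were called, and all 4 fell further in R10 (background 2.08% in that direction).

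Transcripts of other genes were also lower in stem cells. A 399-base piece of Tril, a Toll-like receptor interactor, was at 87.6, 83.9, 520 and 470 TPM in R10 progenitors, at 0 in the 6 numbered stem cell libraries and at 1.68 TPM in the unnumbered one. The OKMS and OKS libraries were far above the wild-type ones, and the log2 difference was -7.49 ± 0.52 (limma, adjusted p = 9.99e-08). A 361-base piece of Maf, a basic leucine zipper factor, was at 61.6, 142, 203 and 187 TPM against 1.85 TPM at most. A transcript assigned to a retained-intron model of Ccnd2, the gene for the G1 cyclin D2, was at 78.7, 78.4, 132 and 152 TPM in R10 progenitors and 1.503 TPM at most in stem cells. At day 18 the Ccnd2 transcript still ranged from 6.76 to 316 TPM in the 4 libraries, which pool OKMS and OKS cells in FBS-LIF and in 2i-LIF. Fam181b, a gene active in the developing nervous system, was at 70.4, 67.1, 100 and 89.2 TPM in R10 progenitors and 2.47 TPM at most in stem cells.

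The rises in stem cells were led by intronless gene copies. Rps4l, a copy of the ribosomal protein gene Rps4x (chr6:148354593-148355598), was at 289 to 532 TPM in the 6 numbered stem cell libraries (median 385) and 673 TPM in the unnumbered one, against 0, 1.66, 0.921 and 1.22 TPM in progenitors. In R9 it was at 561 TPM in both stem cell libraries and at 2.87, 0, 0 and 0 TPM in progenitors. The states did not overlap in either chemistry, and the log2 difference was 7.85 ± 0.29 in R10 and 8.65 ± 0.68 in R9 (limma, adjusted p = 2.55e-10 and 0.000937). Rpl10l, a copy of Rpl10 known for its expression in testis (chr12:66283379-66284630), was at 74.0 to 97.97 TPM in numbered and 85.6 TPM in the unnumbered R10 stem cell library, at 102 and 135 TPM in R9, and listed at 0 in all 8 progenitor libraries.

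Rpp25, a protein subunit of RNase P and RNase MRP, was at 97.9 to 144 TPM in the numbered libraries (median 111), 84.7 TPM in the unnumbered one and 0.861 to 1.31 TPM in R10 progenitors. Zfp42-ps1, a pseudogene of the stem cell factor Zfp42, was at 30.4 to 50.5 TPM and 62.0 TPM in these stem cell libraries and at 0 in progenitors of both chemistries. Sfn, which codes the 14-3-3 sigma protein, was at 34.5 to 68.6 TPM and 57.7 TPM against 1.67 TPM at most. A transcript assigned to a retained-intron model of Tbx3, a T-box factor of stem cell self-renewal, was at 26.9 to 42.4 TPM and 37.3 TPM against 0.915 TPM at most. It was at only 3.43 and 10.4 TPM in the R9 stem cells. All 4 were higher in stem cells in both chemistries. Transcripts were named for a rise or fall in R10 stem cells only if R9 had the same sign. Their agreement in direction was thus fixed by the choice. Of the 3 pluripotency transcripts tested in each chemistry, Foxd3 rose in both (log2 difference 1.64 in R10 and 3.61 in R9), and 1 of Sox2 passed in R9 (1.31; limma, adjusted p = 0.0457).

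The pseudogene Gm15500 went with the library set. It was at 82.5 to 135 TPM in the numbered stem cell libraries and at 3.62 TPM in the unnumbered one, with 0 to 2.75 TPM in R10 progenitors. In R9 it was at 18.1 and 22.9 TPM in stem cells and at 46.9, 16.2, 15.9 and 0 TPM in progenitors. It was called in R10 (log2 difference 5.09; limma, adjusted p = 0.000145) and not in R9 (0.97; adjusted p = 0.822).

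Many replication-dependent histones and mitochondrial transcripts went with the library set too. Of 48 histone transcripts tested in R10, 22 were higher in stem cells and 4 lower, and of 66 mitochondrial ones 20 were higher and none lower. In R9 the counts were 0 higher and 2 lower of 27, and 0 and 5 of 69. The histone count in R9 was 4 and 1 of 46 without the O4G and 5 and 1 of 47 without the R1 stem cell library. The unnumbered R1 library lay below all 6 numbered ones for 28 of the 48 histone and 50 of the 66 mitochondrial transcripts, and set alone against the progenitors it gave 4 higher and 3 lower of 56 histone transcripts and none called by limma of 67 mitochondrial ones, of which 3 had an unadjusted p under 0.05. With 1 stem cell library, that contrast takes the spread from the progenitors. Without the unnumbered library in the stem cell group there were 23 histone transcripts higher and 4 lower of 47, and 39 mitochondrial ones higher and none lower. The mitochondrial count also moved with single progenitor libraries: 12 higher and 0 lower without wild-type replicate 2, 10 and 1 without wild-type replicate 3, and 29 and 0 without OKMS. For the refits that left out 1 library, the share called over all transcripts is not given.

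H1f5 was at 101, 150, 157 and 158 TPM in R10 progenitors, 1533 to 1925 TPM in the numbered stem cell libraries (median 1689), 109 TPM in the unnumbered one and 0 in both R9 stem cell libraries. H2ac4, a core histone H2A gene, was at 566 to 744 TPM in the numbered stem cell libraries, 5.01 TPM in the unnumbered one and 9.19 to 22.5 TPM in progenitors. The unnumbered value lies within the progenitor range for H1f5 and below it for H2ac4. mt-Nd1 was at 1504 to 2491 TPM in the numbered stem cell libraries, 119 TPM in the unnumbered one and 322, 157, 559 and 527 TPM in progenitors. The share of reads on single-exon transcripts taken by mitochondrial ones was 1.24% in the unnumbered R1 library and 1.47 to 2.42% in wild-type R10 progenitors, against 9.1 to 9.5% in the OKMS and OKS progenitors. State and library set cannot be told apart for these transcripts.

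Histone transcripts that ended near the stem-loop were most abundant in the numbered R10 libraries, while those that ran further past it were at overlapping levels in all sets. Of the 62 histone transcripts with a stem-loop in their reference, 3 ended before it, 4 within 20 bases after it, 9 at 21 to 100 bases and 46 further on, with a median of 546 bases past it. Histone transcripts with no hit in their reference, such as H1f5 with 17723 reads and Hist1h2an with 5134, are not in these counts. The 13 that ended at most 100 bases past it took 10.0 to 76.0 RPM (reads scaled to the transcript reads of the library) in R9, with a median of 40.8 RPM, 46.3 to 304 in the unnumbered R10 libraries (median 133) and 1191 to 2233 in the numbered ones (median 1537). These last did not overlap with any other library. The 46 that ended further on took 20.3 to 337 RPM in R9 (median 103), 59.3 to 339 in the unnumbered R10 libraries (median 117) and 118 to 316 in the numbered ones (median 183), ranges that overlap throughout. The unnumbered R1 stem cell library, at 202 RPM of the first kind, lay within the 173 to 304 of the R10 progenitors.

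Smaller families moved in both directions. Among the Frizzled receptors for Wnt ligands, 2 Fzd10 transcripts rose in stem cells in R10 (log2 difference 2.23 and 1.41), and 7 transcripts of Fzd1, Fzd2, Fzd7 and Fzd9 fell by 1.28 to 3.60 on the log2 scale, with only Fzd8 not called among the 10 tested. With a minimum of 5 TPM there were 2 higher and 2 lower of 4, with the unnumbered library alone 1 and 1 of 16, and in R9 0 and 2 of 14. Immediate-early and CEBP factors went with the library set in part: their summed level was 50.8 to 67.0 TPM in the numbered stem cell libraries, 337 TPM in the unnumbered one and 230 to 383 TPM in R10 progenitors. Of these factors, 1 of 18 tested was higher and 10 lower in R10, 1 and 4 of 29 with the unnumbered library alone, and 1 of 27 higher and 8 lower in R9. All 4 transcripts of Jun tested, an AP-1 subunit, fell by 1.80 to 4.60 on the log2 scale in R10. The replication-independent linker histone H1f0, known from resting and differentiated cells, fell in both chemistries (-2.16 in R10 and -1.92 in R9).

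The course of reprogramming was sampled with 1 library per factor set and day, so a day rests on an OKMS and an OKS library. limma's F test over days with the factor set as a term called 0.129% of 138612 transcripts (0.0447% with their largest difference upwards and 0.0844% downwards) and 2 of 2860 single-exon ones. Cebpd, a basic leucine zipper factor of acute responses (chr16:15887283-15888466), was at 0 and 3.33 TPM at day 0 in OKMS and OKS cells and at 118 and 124 TPM at day 2. It was then at 32.2, 52.4, 32.5, 10.9 and 2.26 TPM in OKMS and 215, 135, 213, 27.8 and 8.06 TPM in OKS cells at days 4, 6, 10, 14 and 20. Wild-type cells after 2 days in FBS-LIF, which carry no factors, had 152 TPM. The largest difference from day 0 was 5.88 on the log2 scale at day 2 (limma, adjusted p = 0.0328).

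The other was Gm4739, a 306-base transcript. It was at 0 at days 0 and 2 in both, then at 15.6, 9.65, 29.0, 35.2 and 43.6 TPM in OKMS and 7.86, 11.4, 17.9, 20.1 and 36.4 TPM in OKS cells, with 103 and 76.0 TPM in stem cells. One wild-type progenitor library had 28.3 TPM and the other 0. The difference at day 20 was 5.35 (limma, adjusted p = 0.0294). Neither Cebpd nor Gm4739 was called without the day 20 libraries: with limma none of 2637 passed, while 224 had an unadjusted p under 0.05.

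Lists of single-exon transcripts were also summed per library, without a test. Beside them, the 9 markers of other cell types summed to 1.35 to 13.6 CPM in R9 progenitors, 212 to 681 CPM in OKMS and 481 to 2417 CPM in OKS cells in FBS-LIF (R9), with Acta2 the highest in each of these OKS libraries, and their part was not tested. The 76 transcripts of neural transcription factors held 426 to 624 TPM in R9 progenitors. In OKMS cells they held 185, 284, 193, 117, 46.7 and 22.3 TPM at days 2, 4, 6, 10, 14 and 20, and in OKS cells 239, 247, 253, 287, 115 and 85.8 TPM. Stem cells held 19.1 and 23.4 TPM, so OKMS cells were within the stem cell range at day 20 and OKS cells above it. In 2i-LIF at day 20, OKMS and OKS cells held 23.8 and 19.4 TPM.

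The 63 transcripts of the protocadherin beta cluster, cell adhesion proteins that give neurons their identity, held 27.0 to 95.9 TPM in R9 progenitors and were listed at 0 in both R9 stem cell libraries. OKS cells held 78.8, 81.6, 74.3, 82.4, 33.9 and 0.470 TPM at days 2 to 20, and OKMS cells 38.8, 15.8, 26.8, 11.1, 3.89 and 0.763 TPM. The order of OKS above OKMS at days 2 to 14 rests on 1 library each and was not tested. In R10, progenitors held 19.5 to 58.9 TPM, the 6 numbered stem cell libraries at most 0.203 TPM and the unnumbered one 2.45 TPM.

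The 52 transcripts of immediate-early and CEBP factors held 224 to 344 TPM in R9 progenitors. At day 2 in FBS-LIF they held 609 TPM in OKMS, 1098 TPM in OKS and 945 TPM in wild-type cells, all above the progenitors. OKS cells held 1036, 674 and 869 TPM at days 4, 6 and 10, and OKMS cells 191, 260 and 331 TPM. In R10 the wild-type libraries of day 2 held 722 and 1063 TPM against 230 to 383 TPM in progenitors.

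**Figure D5:**
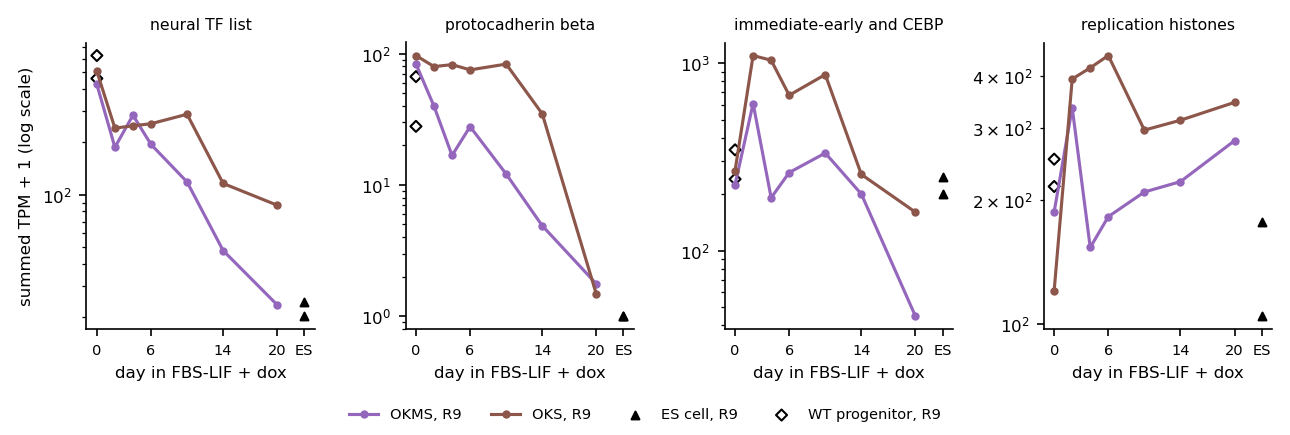
Summed level (TPM + 1, log axis) of 4 lists of single-exon transcripts by day in R9, for OKMS and for OKS cells kept in FBS-LIF, with wild-type progenitors and embryonic stem cells as separate points. Neural transcription factors and protocadherin beta transcripts are lower at day 20 than at day 0 in both, immediate-early and CEBP factors are highest in OKS cells at days 2 to 10, and each point is 1 library.

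Medium and doxycycline without factors were compared in wild-type cells of R10, with 2 libraries at day 2 in FBS-LIF and 2 progenitor libraries. limma called 15.7% of 57997 transcripts (7.83% higher and 7.84% lower) and 265 of 1951 single-exon ones (13.6%), 129 higher and 136 lower. edgeR called 44, of a background of 2.87% (1.26% higher and 1.61% lower). The count fell to 0 in limma without either progenitor library, where 366 and 447 had an unadjusted p under 0.05, and rose to 493 (469 higher and 24 lower) without replicate 3 in FBS-LIF and was 221 (203 and 18) without replicate 2, so it rests on single libraries. For these refits the share called over all transcripts is not given. Among lncRNAs 35 were higher and 2 lower of 245, and among pseudogenes 19 were higher and 69 lower of 647, with 5 and 0 lncRNAs and 0 and 7 pseudogenes in edgeR. Of the replication-dependent histones tested, 4 were higher and 21 lower of 47, and 1 and 7 in edgeR. That lean rests on single libraries, with 5 higher and 5 lower of 58 without FBS-LIF replicate 2, 4 and 6 of 53 without replicate 3, and none called by limma without either progenitor library. Markers of other cell types moved with these changes: the 9 genes summed to 3096 and 1209 CPM in FBS-LIF and 18.1 and 11.2 CPM in the progenitors. Gfap made up 3015 and 1056 CPM of this against 5.72 and 5.17 CPM, Acta2 was at 47.0 and 107 CPM against 0 and 0.287 CPM, and Gata6 was at 0 in all 4. Their part in the result was not tested.

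Named transcripts of this comparison had low values in 1 state. Hspa1a, an inducible heat shock protein gene, was at 32.6 and 27.8 TPM in FBS-LIF and at 0 in both progenitor libraries (log2 difference 4.96; limma, adjusted p = 0.0179), and all 4 heat shock transcripts tested were higher, with 2 called by edgeR, 1 with median centring, 1 of 5 with no filter, and 2 without either FBS-LIF library. Id1, an inhibitor of helix-loop-helix factors that BMP signals induce, was at 98.1 and 34.8 TPM against 0.55 and 0 TPM (5.58; limma, adjusted p = 0.0351). In R9, where progenitors were at 0, Id1 was at 53.0 TPM in wild-type, 48.8 TPM in OKMS and 68.1 TPM in OKS cells at day 2. It was then at 121, 112, 180 and 26.7 TPM in OKS cells at days 4, 6, 10 and 14, and at 0, 5.11 and 5.13 TPM in OKMS cells at days 4, 6 and 10. Mt1, a metallothionein gene that metals and stress hormones induce, was at 95.5 and 17.9 TPM against 0.585 and 0 TPM (5.08; limma, adjusted p = 0.045). H3c3, an H3 histone gene that ends 6 bases past its stem-loop, was at 0 in both FBS-LIF libraries and at 104 and 67.3 TPM in progenitors (-6.41; limma, adjusted p = 0.0139). Without either progenitor library none of these was called, with limma adjusted p between 0.0803 and 0.415.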

How the data were processed

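Levels were measured in 45 mouse cDNA libraries (22 R9, 23 R10), grouped by their labels. Reads were aligned to build mm10, and minimap2 2.24-r1122 is named, per the submitters' processing notes. The deposited levels are labelled Isoquant, and the strand setting of the counting is not given in the sources used here. The deposited transcript table holds TPM, which depends on transcript length, and the authors' gene table holds CPM. The deposited classification gives lengths, positions, motifs, predicted coding status and the percent of A after the end. Of the gene table's columns, 13 could not be tied to a single library and were not used. Gene classes came from GENCODE M21 by transcript identifier.

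TPM times length gave whole reads for all values within a tolerance of 0.02 reads. Transcript reads ranged from 199943 to 2129779 per library, and intervals for shares cover counting error only. Replicates of the same group all differed by more than the sampling noise of their counts.

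The main tests were fitted over all transcripts with limma 3.58.1 (R 4.3.3) on log2(TPM + 1), with at least 1 TPM in as many libraries as the smaller group holds, Benjamini-Hochberg adjustment, and calls at an adjusted p under 0.05 with a log2 difference of at least 1. edgeR 4.0.16 on the recovered reads was added after seeing the data. Only the limma fit was tested on simulated data. Tables and plots were made with Python 3.11.15, pandas 2.3.3, numpy 2.4.6, scipy 1.17.1 and matplotlib 3.10.9. The alternatives were other pseudocounts, filters, scalings and tests. The share called over all transcripts is given for the main fits, edgeR on transcripts and the unnumbered R1 library alone, and for no other alternative. Each library was left out in turn for stem cells against progenitors and for FBS-LIF against progenitors. This was not done for the comparison of chemistries, and in the course only the day 20 libraries were left out. The interaction was fitted in 1 way only.

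The transcripts and the gene lists were chosen with earlier results of these data known. Named were the most abundant transcripts of each class, those with the largest called differences, and the tested members of the lists. For stem cells against progenitors, the largest differences were taken among transcripts with the same sign in R9, and transcripts low in both states were left out. Pet100, Trim35, Alkbh1, Irf3, Gm10401, Scp2-ps2, Psme2b, Purb and mt-Nd5 fall outside that rule and were chosen after their values were seen. Sequences were read from the deposited classification and from the GENCODE transcripts. A progenitor marker gene is not reported here.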

Additional observations from a re-analysis of the deposited data

Results flagged for a closer look

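In R10, the stem cell library of line R1 without a library number stood far from the 6 numbered ones for many single-exon transcripts. Single-exon transcripts took 8.327% of its TPM, against 11.19 to 11.82% in the others, and 6.264% of its reads, against 7.232 to 7.585%. Of these reads, mitochondrial transcripts took 1.237% (11.9 to 14.69% in the others) and pseudogenes 67.22% (53.49 to 56.84%). Among transcripts it was lowest for the linker histone H1f5 at 109.0 TPM (1533 to 1925), mt-Nd1 at 118.5 TPM (1504 to 2491) and 3 transcripts of mt-Rnr2 at 432.2 (8981 to 14230), 88.24 (3570 to 5685) and 54.55 TPM (798.4 to 1192). The list of low values also held Rbm8a2 at 128.1 TPM (819.4 to 1117), Gm49207 at 229.0 (1412 to 1693), 1 transcript of Gm42418 at 93.63 (405.3 to 525.6), Rps23-ps1 at 5307 (6954 to 8064), Ctnnb1 at 46.01 (1194 to 1597) and Gm15500 at 3.619 TPM (82.47 to 135.2).

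The same library was the highest for Sf3b5 at 1039 TPM (647.8 to 714.2 in the numbered libraries), Gm10282 at 800.6 (448.6 to 536.6), the histone H2aj at 320.2 (110.9 to 169.9) and another transcript of Gm42418 at 359.5 TPM (16.4 to 20.68). It was also highest for Gm12191 at 3838 TPM (2136 to 2713), a transcript listed under Eif3j2 at 687.8 (176.7 to 215.2) and 4930548H24Rik at 240.7 TPM (39.39 to 105.0). Line R1 also had 2 numbered libraries, so these gaps were found within a line. Its part in the results was measured by the comparisons with and without it given above.

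Progenitor libraries had fewer such gaps. In R10, wild-type replicate 2 was lowest for H1f5 at 101.0 TPM (150.4 to 158.1 in the others) and highest for 0610012G03Rik at 326.1 TPM (241.1 to 255.2), and the OKMS library was highest for the Eif3j2-listed transcript at 734.9 TPM (555.4 to 579.6). In R9, wild-type replicate 2 was lowest for a 435-base mt-Rnr1 transcript at 4.92 TPM (47.29 to 54.32), and the OKS library was highest for a Gm42418 transcript at 41.31 TPM (10.11 to 14.97). The OKMS library was highest for Rpl36a-ps2 at 3580 TPM (2741 to 2780) and Gmcl1 at 298.6 TPM (92.76 to 126.4). Dixon's ratio was checked for 124 groups of 4 to 7 libraries, and chance alone passes about 1 group in 20; 29 passed, many of them in the same library.

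The difference between stem cells and progenitors was not the same in R10 and R9 for 12 of the named transcripts, by limma's interaction term. Values are the R10 difference minus the R9 difference on the log2 scale. Neural transcription factors were more negative in R10: Sox4 in 2 transcripts (-2.914 and -2.684; adjusted p = 0.002415 and 0.03118), Pou3f4 (-2.888; adjusted p = 0.01469) and Sox11 (-1.503; adjusted p = 0.02347). For Pou3f4 and the Sox4 transcript at -2.914, stem cells were at or near 0, so the value follows the progenitor levels. Histones were more positive in R10: H1f5 (4.753; adjusted p = 0.02016), H2bc15 (4.011; adjusted p = 0.02171), H1f2 (3.784; adjusted p = 0.005042) and H4c9 (3.602; adjusted p = 0.001317). For H4c9 the R10 difference was near 0 (-0.16) and the R9 difference -3.76. Tbx3 was more positive (2.08; adjusted p = 0.03156). The 3 Gm42418 transcripts went both ways, at 4.661, -2.671 and -4.181 (adjusted p = 0.01414, 0.04024 and 0.03656). In R10 this term compares mostly numbered stem cell with unnumbered progenitor libraries, so state and library set cannot be told apart in it.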

How the results depend on the processing

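Of the named transcripts called in R10 stem cells against progenitors, 111 could also be tested with the unnumbered R1 library alone, and 16 changed sign there, none of them called. Rises became negative log2 differences for H1f5 (-0.35), H1f3 (-0.02), H1f4 (-1.15), H2ac4 (-1.40), H2ac11 (-0.58), H2ac12 (-1.01), H2ac13 (-0.52), Hist1h2an (-0.89), H2bc8 (-0.58), H2bc18 (-0.49), H3c6 (-0.12), Gm49207 (-0.15), Ctnnb1 (-1.53) and mt-Nd1 (-1.55), and falls became positive for CT010467.1 (0.50) and Eif3j2 (0.18). Under the other alternatives, edgeR included, none of the called named transcripts that could be tested changed sign, in R10 or R9 stem cells, between chemistries or in FBS-LIF. Fewest could be tested with a minimum of 5 TPM: 77 of 113, 38 of 41, 56 of 76 and 48 of 55. Balances of counts and some gene groups did. The R9 count of 129 higher and 87 lower in stem cells became 66 and 77 with a minimum of 5 TPM and 31 and 36 by edgeR, and the R10 count of 319 and 316 changed sides under several alternatives, such as 272 and 387 with no filter. By group, in R10 stem cells against progenitors, the median log2 difference went from 0.85 to -0.32 for replication-dependent histones and from 1.23 to -0.84 for mitochondrial transcripts with the unnumbered R1 library alone. For pseudogenes it lay near 0 and took both signs, with 127 higher and 83 lower of 828, but 98 and 117 without wild-type progenitor replicate 2 and 105 and 113 without replicate 3. Counts of called single-exon transcripts moved as follows, and the cause was not tested except where fewer transcripts were tested. The share called over all transcripts is not given beside these counts, so they do not show changes particular to single-exon transcripts. In R10, stem cells against progenitors called 635, and 365 with a minimum of 5 TPM, 242 with the unnumbered R1 library as the only stem cell library, 275 of 812 tested by gene CPM over genes whose every transcript is single-exon, and 203 of 391 by edgeR on gene reads; without 1 library each, 591 to 712. In R9 it called 216, and 143 with a minimum of 5 TPM, 122 with median centring and 67 by edgeR; without 1 library each, 233 to 359, with 359 without the O4G and 337 without the R1 stem cell library. The comparison of chemistries called 602, and 316 with a minimum of 5 TPM. In FBS-LIF against wild-type progenitors it called 265, and 22 with no filter, 82 with median centring and 44 by edgeR; without 1 library each, 0 to 493. The course called 2, and 1 with a pseudocount of 0.25, 7 with a minimum of 5 TPM, 58 without the factor set as a term and 0 without day 20. The share with an A-rich end was 7.465%, and 18.607% at a threshold of 50% A and 3.751% at 80%. For multi-exon matches it was 0.1323%, and 3.36% at 50% A and 0.0584% at 80%. Median centring moved the median over all transcripts from 0.10 to -0.06 in FBS-LIF against progenitors and from 0.17 to 0.05 in R10 stem cells. The edgeR fits and the comparison of chemistries without numbered libraries were chosen after seeing the data.

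With the replicate number as a block, FBS-LIF against progenitors called 515 single-exon transcripts, again without the share over all transcripts. Same-numbered libraries shared a correlation of 0.19 of their deviations over 57997 transcripts, from 2 pairs, which does not settle whether the numbers pair them; the labels do not say so. For the 38 transcripts named for the size of their difference, 452 of 488 recomputed values kept direction and call, and 36 kept direction alone. Those 38 were picked as the largest called differences in the same libraries, so this tally does not measure how stable other calls are. Depth limits most single-exon transcripts, with a median of 23 reads over all 45 libraries and 1288 under 10.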

Other observations

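Heat shock genes without introns were summed over their 5 single-exon transcripts (Hspa1a, Hspa1b and Hspa2, which code chaperones of the HSP70 family). R9 progenitors held 0 to 4.90 TPM and R9 stem cells 1.65 and 6.02 TPM. At days 2, 4, 6, 10, 14 and 20 in FBS-LIF, OKS cells held 79.4, 67.5, 36.4, 68.5, 44.6 and 10.8 TPM, and OKMS cells 42.5, 19.4, 5.37, 5.63, 18.5 and 4.76 TPM. Wild-type cells at day 2 in FBS-LIF held 45.2 TPM in R9 and 55.7 and 48.7 TPM in R10, against 2.16 to 11.7 TPM in R10 progenitors. OKS cells were above OKMS cells at each of these days, with 1 library each, and the difference was not tested.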
